A study of Mus musculus with 16 samples.

Results

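Transcripts of 32 genes that charge transfer RNA, make serine and asparagine or take part in the amino acid stress response were compared between secretory and other epithelial cells of the mouse small intestine. The genes were a named list of 20 cytosolic aminoacyl-tRNA synthetases and 12 genes of amino acid synthesis and stress, found by symbol among 45513 genes of the deposited count tables. The rule names the genes and uses no measured value, although the list was drawn up with earlier results of these data known. All 32 genes were expressed highly enough to be tested, among 15323 tested genes. The data were RNA sequencing libraries of sorted EpCAM+ cells from the small intestine of 8 mice, with 1 tdTom+ and 1 tdTom- library from each mouse. The study compared both fractions to define the transcripts of the secretory lineage.

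All mice were Atoh1(WT)CreERT2 R26RtdTom animals on a C57BL/6 background, males and females, between 8 and 16 weeks old. The recombinase CreERT2 is placed downstream of the *Atoh1* coding sequence, so it is made in cells that transcribe *Atoh1*, whose product directs progenitors towards the secretory fate. The reporter is a single Rosa26 tdTom allele (tdTom/+), and the study describes the *Atoh1* allele as homozygous in its control line, although the labels of these libraries do not state it. Both fractions carried the same alleles and had received the same tamoxifen, 1 mg a day on 3 days per the labels and the study's methods for its secretory signature. A general passage of those methods on RNA sequencing describes a single injection given a day before the cells were taken. A tdTom+ cell is therefore any EpCAM+ cell in which the recombinase acted on the reporter after tamoxifen, or a descendant of one. A tdTom- cell is any other EpCAM+ cell, which can include one that made recombinase without a change of its reporter.

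Aminoacyl-tRNA synthetases join each amino acid to its transfer RNA, and so supply every round of protein synthesis. Serine is made from a glycolytic intermediate by PHGDH, PSAT1 and PSPH, and SHMT2 and MTHFD2 pass its carbon into the mitochondrial folate cycle. When eIF2 alpha is phosphorylated, by GCN2 on amino acid shortage or by PERK on stress of the endoplasmic reticulum, most translation slows and the transcription factor ATF4 is made. ATF4 protein is controlled largely by translation, and its known targets include many cytosolic synthetases, the serine and asparagine genes, CHOP (*Ddit3*), *Trib3* and *Chac1*. Goblet and Paneth cells, the main secretory cells of the small intestine, export large amounts of protein.

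ATF4 binds composite elements whose core can be written TGATGNAA. To show where these letters stand in the genes compared below, windows from 250 bases before to 50 bases after each annotated start (RefSeq, GRCm38.p6) were searched on both strands. Windows were looked up by gene symbol, so a gene listed there under another symbol would be missed. In this way a window was found for 25 of the 32 genes, and not for *Cars*, *Hars*, *Lars*, *Nars*, *Rars*, *Vars* and *Wars*. The core was found in 8 of the 25 genes (32%), against 3.97% of all 32817 windows. The first share counts a gene if any of its windows held the core and the second counts single windows, so their units differ. Known ATF4 targets are on the list because they are known as such, so this share is not independent evidence. Each stretch below is 30 bases on the strand of its gene, with the core in capitals as read there, either TGATGNAA or its reverse complement TTNCATCA.

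Aars, chr8:111033840-111033869, + strand: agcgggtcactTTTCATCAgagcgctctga
Gars, chr6:55037960-55037989, + strand: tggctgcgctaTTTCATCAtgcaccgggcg
Iars, chr13:49682126-49682155, + strand: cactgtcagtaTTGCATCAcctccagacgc
Tars, chr15:11399655-11399684, - strand: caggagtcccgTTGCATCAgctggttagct
Yars, chr4:129189895-129189924, + strand: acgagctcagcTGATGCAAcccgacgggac
Asns, chr6:7693214-7693243, - strand: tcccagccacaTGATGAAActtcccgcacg
Trib3, chr2:152344028-152344057, - strand: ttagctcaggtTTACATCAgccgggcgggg
Chac1, chr2:119351038-119351067, + strand: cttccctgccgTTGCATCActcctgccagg

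The core shown for *Aars* began at position 10 relative to the annotated start, that of *Asns* at -23 and that of *Chac1* at -193. *Aars* held another core, not shown, that began upstream of the start at -112. Of the 8 genes with a core, 6 were higher in tdTom+ cells, 1 (*Trib3*) was lower and 1 (*Iars*) did not pass the test. Of the 17 genes with a window and no core, 7 were higher, 1 was lower and 9 did not pass. Of the 7 genes without a window, 4 were higher, 1 was lower and 2 did not pass. Over all genes tested, 22.7% were higher and 27.0% were lower by the same test, given below. With the mouse as a replicate block *Iars* was higher, as were *Eprs*, *Phgdh* and *Shmt2* without a core and *Vars* without a window. Over all genes 25.8% were higher and 30.0% lower with that block. The counts of these groups were not tested against each other, and a match of letters is not evidence of binding.

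The libraries held 17116405 to 25323567 assigned counts, so that 3 counts corresponded to 0.118 to 0.175 CPM, the counts scaled to a common library size. *Atoh1* lay between 47.9 and 80.0 CPM in tdTom+ libraries and between 0.502 and 1.25 CPM in the others, and all 8 goblet and all 8 Paneth marker genes were higher in tdTom+ cells, while all 8 absorptive marker genes were lower. Both checks went with the labels of the fractions, and 7 of 8 enteroendocrine and 6 of 7 tested tuft genes were also higher in tdTom+ cells. Of 8 stem cell genes 2 were higher (3 with the mouse as a replicate block), and the 8 proliferation genes had log2 fold changes between -0.19 and 0.21. The summed level of immune markers was 10.6 to 148 CPM in tdTom- libraries and 5.95 to 28.9 CPM in tdTom+ libraries, and summed stromal genes, of which *Vim* was higher, at 4.11 to 8.39 and 18.6 to 45.8 CPM. The tdTom- library of mouse 7 stood apart, with the lowest sum of absorptive markers (14533 CPM, against a median of 32640 in tdTom- libraries) and the highest sums of stem (2911 against 1466) and proliferation markers (783 against 538). The tdTom+ library of mouse 7 was also at the ends of its group, with the highest sum of Paneth markers (139283 CPM, against a median of 77357) and of stromal markers (45.8 against 24.8) and the lowest sums of goblet (127950 against 193468) and absorptive markers (1561 against 3591). In bulk samples like these, fewer cells of a type and less RNA per cell cannot be told apart.

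Of the 20 cytosolic synthetases, 11 were higher in tdTom+ cells, 2 were lower and 7 did not pass the test (edgeR quasi-likelihood F-test, Benjamini-Hochberg adjusted p under 0.01). Over all genes tested, 22.7% were higher and 27.0% were lower by the same rule, or 49.6% in either direction. The median log2 fold change of the 20 synthetases was 0.41, and that of all genes was 0.01. The fold changes ran from -0.34 for *Qars* to 3.40 for *Wars*, and 17 of the 20 were above 0, against 50.8% of all genes. In 13 synthetases the tdTom+ library was the higher one in 8 of 8 mice, a pattern seen in 22.9% of all genes, and in 2 it was the lower one in 8 of 8, seen in 27.4% of all genes. With the mouse as a replicate block, 14 synthetases were higher and 2 lower, against 25.8% and 30.0% of all genes. Without mouse 7, 14 were higher and 2 lower.

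**Figure D1:**
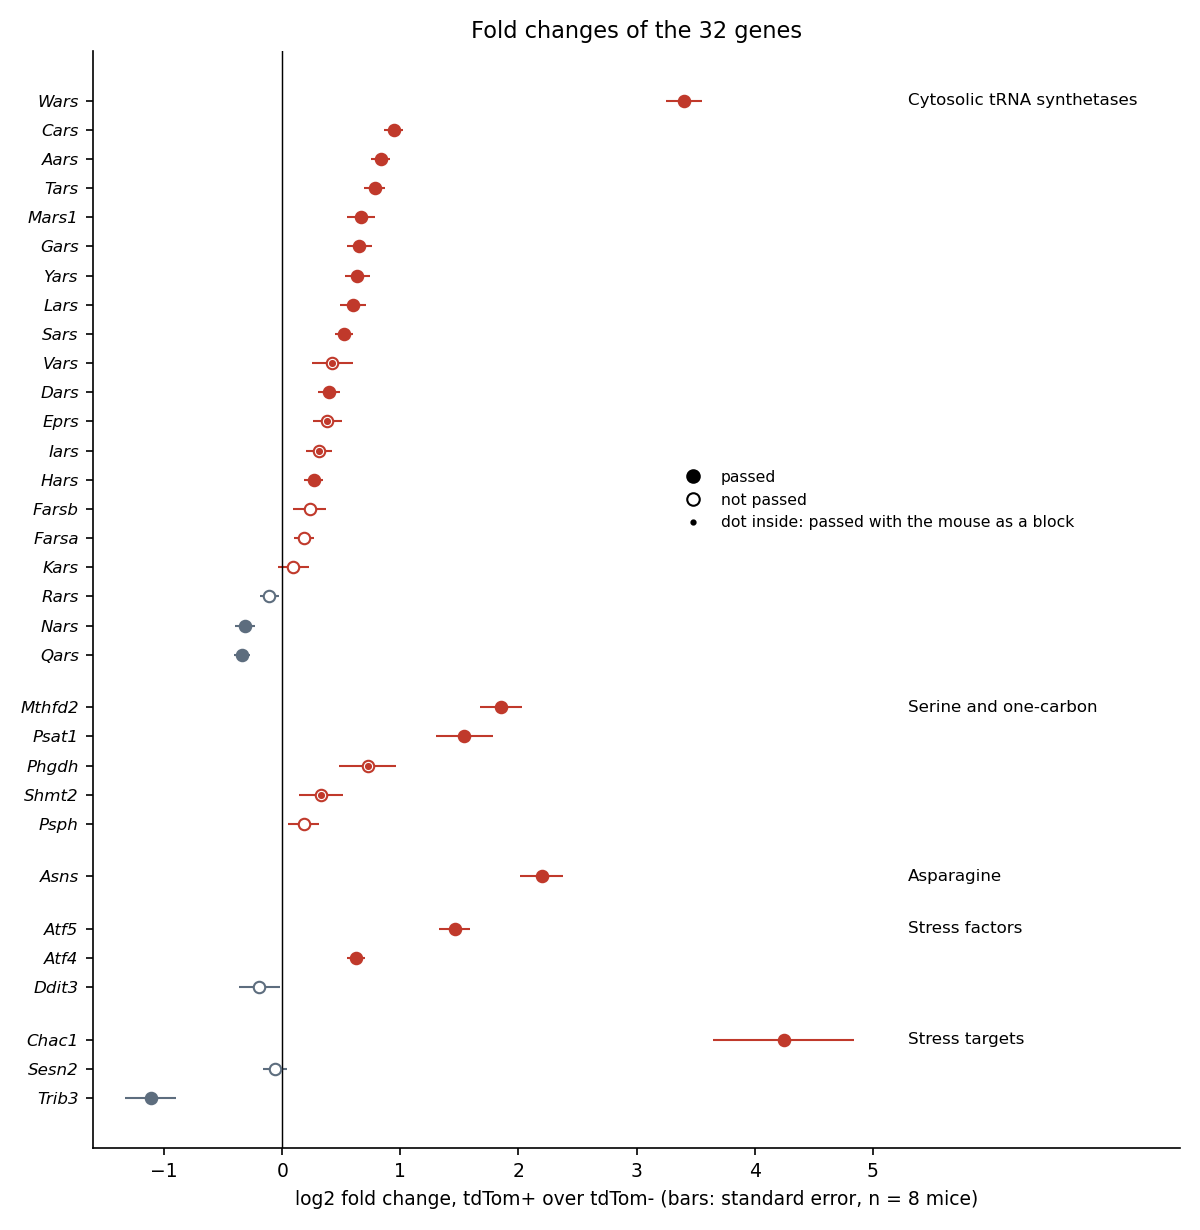
Log2 fold change of each of the 32 genes, tdTom+ over tdTom-, with its standard error (horizontal axis), ordered by size within 5 roles (vertical axis). Filled points passed the test, open points did not, and an open point with a dot inside passed with the mouse as a block. *Wars* at 3.40 stands apart from the other synthetases, which lie between -0.34 and 0.94, and *Chac1* at 4.25 has the widest error.

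*Wars*, the tryptophan synthetase, whose transcript is known in other settings to be induced by interferon gamma, differed the most of the 20. It was at 29.0 to 57.2 CPM in tdTom- libraries, with a median of 36.6, and at 308 to 588 CPM in tdTom+ libraries, with a median of 388. The fractions did not overlap, and mouse 7 was the highest in both. The ratio of the mean levels was 10.5 and the log2 fold change was 3.40 ± 0.15 (SE, adjusted p = 1.3e-12), with a difference of at least 3.20 on the log2 scale in each mouse. Of all genes tested, 2.43% had a log2 fold change at least as large.

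The next largest changes among the synthetases were those of *Cars*, *Aars* and *Tars*. *Cars*, which charges cysteine tRNA, was at 18.7 to 27.3 CPM (median 20.7) in tdTom- and 34.4 to 46.5 CPM (median 40.6) in tdTom+ cells, a log2 fold change of 0.94 ± 0.08 (adjusted p = 5.7e-09). *Aars*, the alanine enzyme, was at 66.3 to 92.5 CPM (median 76.1) in tdTom- and 114 to 157 CPM (median 138) in tdTom+ cells, a log2 fold change of 0.83 ± 0.08 (adjusted p = 3.1e-08). *Tars*, the threonine enzyme, was at 54.7 to 82.1 CPM (median 65.6) in tdTom- and 96.8 to 131 CPM (median 111) in tdTom+ cells, a log2 fold change of 0.78 ± 0.09 (adjusted p = 3.6e-07). In none of the 3 did the fractions overlap. *Sars*, the serine enzyme, was also without overlap, at 62.5 to 86.5 CPM (median 65.7) in tdTom- and 89.0 to 110 CPM (median 100.2) in tdTom+ cells, a log2 fold change of 0.52 ± 0.07 (adjusted p = 5.7e-06). With *Wars* and *Qars* these made 6 synthetases without overlap, against 31.6% of all genes in either direction.

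A further 6 synthetases were higher with overlapping fractions. *Mars1* (methionine), *Gars* (glycine), *Yars* (tyrosine) and *Lars* (leucine) had log2 fold changes of 0.66 ± 0.12, 0.65 ± 0.11, 0.63 ± 0.10 and 0.60 ± 0.11, with adjusted p between 3.1e-05 and 8.9e-05. *Dars* (aspartate) was at 34.4 to 55.6 CPM (median 42.5) in tdTom- and 50.3 to 64.7 CPM (median 57.4) in tdTom+ cells, a log2 fold change of 0.39 ± 0.10 (adjusted p = 0.0016). *Hars* (histidine) was at 25.9 to 39.7 CPM (median 29.8) in tdTom- and 33.2 to 42.1 CPM (median 37.7) in tdTom+ cells, a log2 fold change of 0.26 ± 0.08 (adjusted p = 0.0076). All 6 were the higher in tdTom+ cells of 8 of 8 mice. The call of *Hars* was lost on leaving out any one of mice 1, 2, 4, 5 and 6, with adjusted p between 0.012 and 0.027, with total counts as the scale (0.044) and with no filter on low counts (0.021).

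*Nars* and *Qars* went the other way. *Nars*, the asparagine enzyme, was at 174 to 266 CPM (median 217) in tdTom- and 153 to 209 CPM (median 178) in tdTom+ cells, a log2 fold change of -0.32 ± 0.08 (adjusted p = 0.0035). *Qars*, the glutamine enzyme, was at 129 to 165 CPM (median 136) in tdTom- and 102 to 120 CPM (median 111) in tdTom+ cells, a log2 fold change of -0.34 ± 0.07 (adjusted p = 0.00017). Both were the lower in tdTom+ cells of 8 of 8 mice, and the fractions overlapped for *Nars* and not for *Qars*. Neither call held without mouse 3, where *Nars* was at -0.20 (adjusted p = 0.084) and *Qars* at -0.24 (adjusted p = 0.011), and that of *Nars* was lost without mouse 1 (adjusted p = 0.015) and with 10 counts required in every library (-0.20, adjusted p = 0.05). Leaving out mouse 3 moved the median log2 fold change of all genes to 0.12. *Qars* shares 566 of its 7267 annotated exon bases with *Qrich1*, and no other of the 32 genes shares exon bases on its strand with another gene.

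For the other 7 synthetases the test was not passed. *Eprs*, the bifunctional glutamate and proline enzyme, was at 70.8 to 132 CPM (median 87.2) in tdTom- and 96.4 to 150 CPM (median 123) in tdTom+ cells, and was the higher in tdTom+ cells of 8 of 8 mice. Its log2 fold change of 0.38 ± 0.12 had an adjusted p of 0.012, and 1.3e-05 with the mouse as a replicate block. *Eprs* also passed with relative log expression, TMM without the 10 most counted genes, DESeq2, limma-voom, thinning, 10 counts required in every library, and without mouse 3 or mouse 7, with adjusted p between 0.0016 and 0.0085. *Iars* (isoleucine) at 0.31 ± 0.11 and *Vars* (valine) at 0.42 ± 0.18 had adjusted p of 0.023 and 0.047, and of 0.0002 and 0.00078 with the block. Both also passed without mouse 7, and *Iars* without mouse 3 and with 10 counts required in every library. *Vars* was at 171 CPM in the tdTom- library of mouse 7, against 64.3 to 109 CPM in the other tdTom- libraries, and that mouse was the only one in which *Vars* was not higher in tdTom+ cells. *Farsb* and *Farsa*, the subunits of the phenylalanine enzyme, *Kars* (lysine) and *Rars* (arginine) had log2 fold changes of 0.23 ± 0.14, 0.18 ± 0.09, 0.09 ± 0.13 and -0.11 ± 0.08. None of these 4 passed with the block. *Farsa* passed (adjusted p = 0.0051) and *Rars* was at 0.01 when genes were required to have 10 counts in every library, a filter that moved the median of all genes to 0.12. GENCODE lists a pseudogene copy of *Kars*, and reads of near-identical copies can be divided between them. Whether this changed the counts was not tested, for *Kars* or for the other genes.

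**Figure D2:**
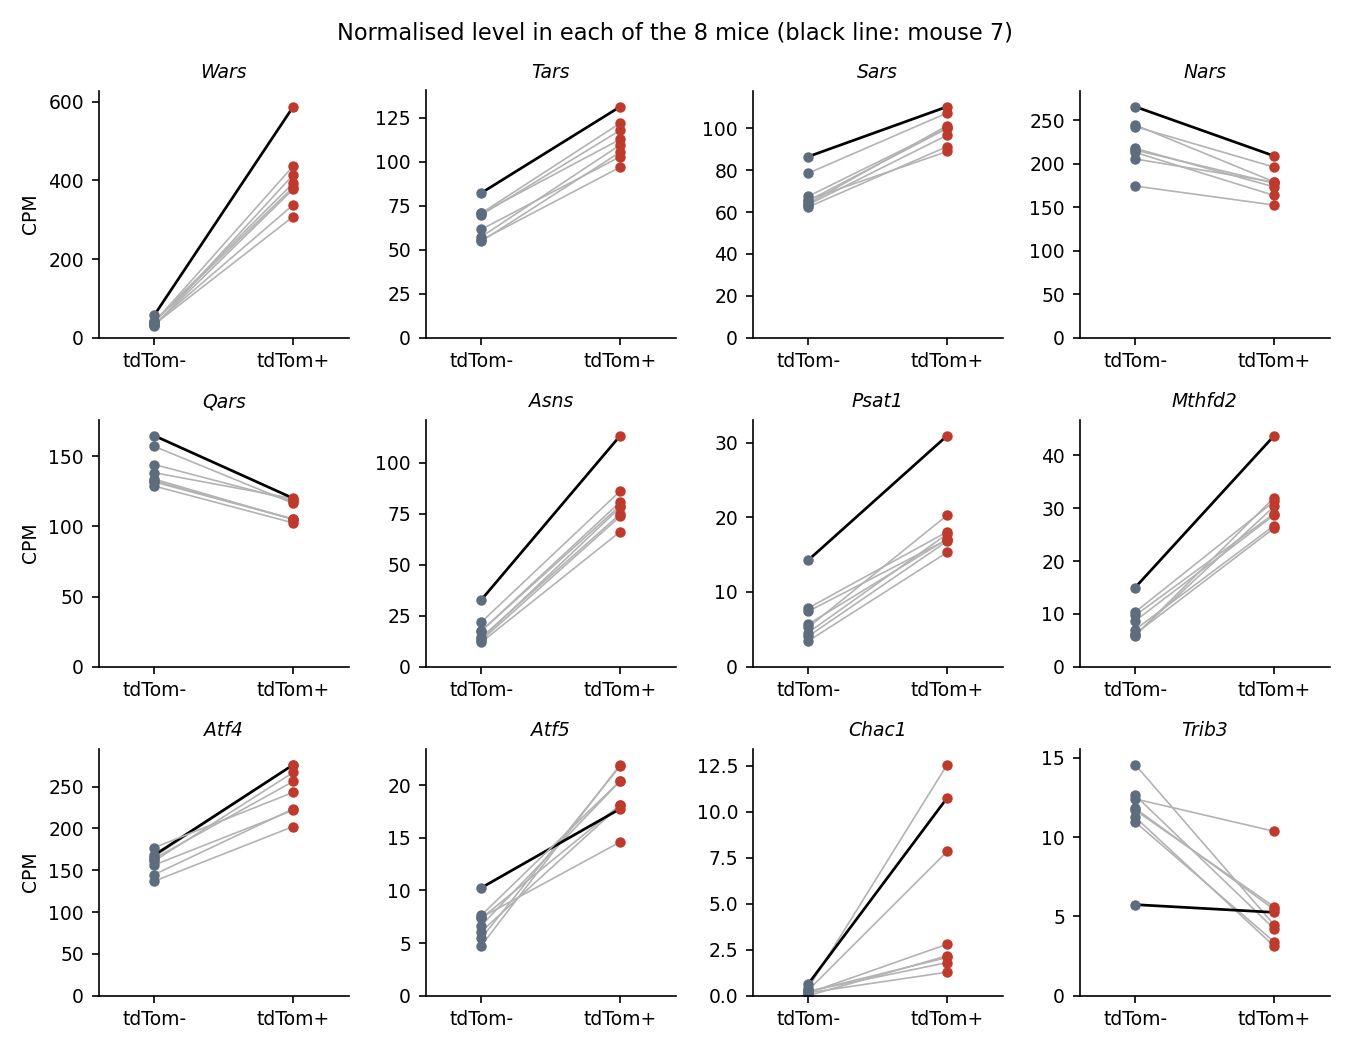
Normalised level (CPM, vertical axis from 0) of 12 of the genes in tdTom- and tdTom+ libraries, with a line for each of the 8 mice and mouse 7 in black. Every line rises for *Wars*, *Tars*, *Sars*, *Asns*, *Psat1*, *Mthfd2*, *Atf4*, *Atf5* and *Chac1* and falls for *Nars*, *Qars* and *Trib3*.

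Levels of different genes were compared per kb of the principal transcript. In tdTom- cells *Nars* was the highest synthetase at 81.1 ± 10.2 CPM per kb (SD, n = 8), followed by *Qars* at 50.5 ± 4.67, *Kars* at 42.1 ± 11.8 and *Rars* at 37.7 ± 4.64, and *Wars* was in place 8 of 20 at 21.05 ± 4.82. In tdTom+ cells *Wars* was in place 1 at 222 ± 46.2 CPM per kb, followed by *Nars* at 65.2 ± 6.41, *Kars* at 44.9 ± 5.82, *Gars* at 43.0 ± 4.78 and *Qars* at 39.8 ± 2.75. Within these orders *Kars* differed from *Qars* and from *Rars* by less than its spread in tdTom- cells. The same held there for *Wars* against *Vars*, *Dars*, *Sars*, *Eprs* and *Tars*, so its place among them is not settled. In tdTom+ cells *Kars* differed from *Gars*, and *Gars* from *Qars*, by less than its spread. *Cars* was at the low end of both orders, at 6.60 ± 0.823 and 12.7 ± 1.15 CPM per kb, and in tdTom+ cells it differed from *Yars* (13.6 ± 1.58) and *Farsa* (13.7 ± 0.923) by less than or about its spread. The 20 synthetases together made up 1355 ± 225 CPM in tdTom- libraries and 2002 ± 215 CPM in tdTom+ libraries (mean and SD, n = 8), and 1317 ± 217 and 1597 ± 144 CPM without *Wars*. Both sums were higher in tdTom+ cells of 8 of 8 mice. *Wars* held 2.81% ± 0.203 of the summed CPM in tdTom- and 20.1% ± 2.34 in tdTom+ cells.

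**Figure D3:**
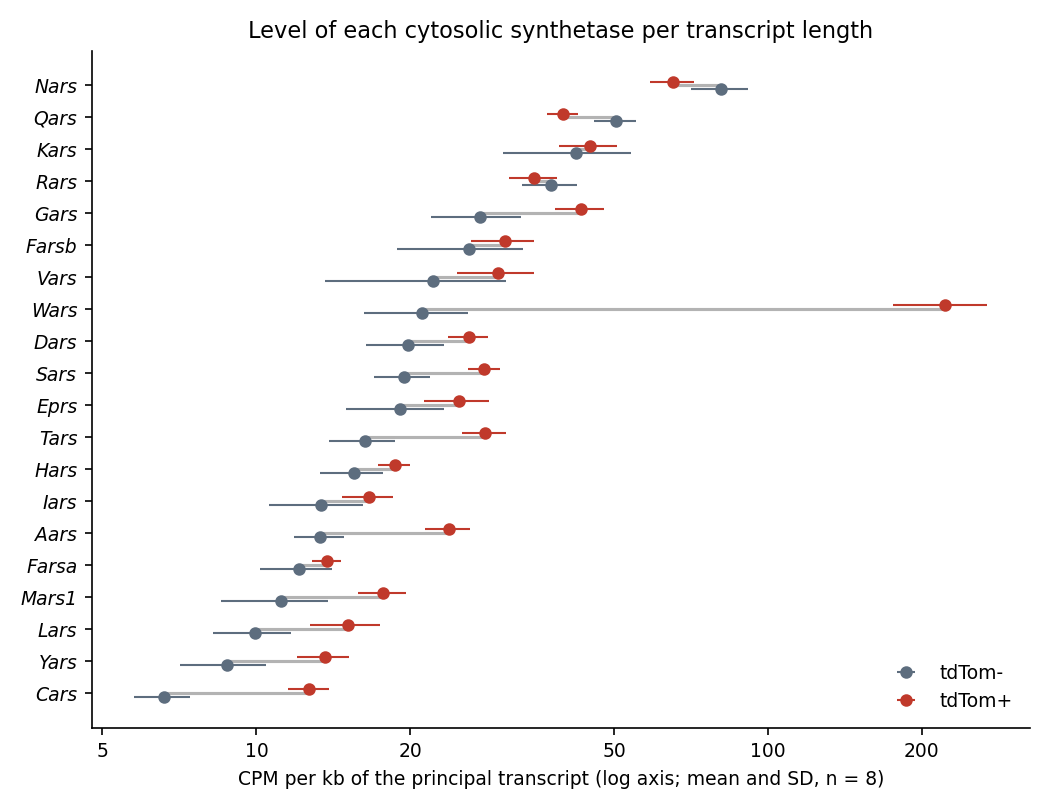
Level of each of the 20 cytosolic synthetases in CPM per kb of the principal transcript (log axis; points are means and bars SDs over 8 mice), ordered by the level in tdTom- cells. *Wars* moves from 21.05 in tdTom- to 222 in tdTom+ cells, past *Nars*, which goes from 81.1 to 65.2.

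The enzymes fall into classes I and II by the fold of their catalytic domain, and some sit together in the multi-synthetase complex. The 9 class I genes had a median log2 fold change of 0.60, with 5 higher and 1 lower, and the 10 class II genes a median of 0.33, with 6 higher and 1 lower (*Eprs*, which holds both classes, is in neither count). Of the 8 genes of the complex 3 were higher and 1 lower, with a median of 0.35, and of the other 12 genes 8 were higher and 1 lower, with a median of 0.58. With the mouse as a replicate block 7 class I and 6 class II genes were higher. In the complex 5 genes were then higher, as were 9 of the other genes. In each of these groups 1 gene was lower. Over all genes 22.7% were higher and 27.0% lower, or 25.8% and 30.0% with the block. These splits are counts and medians that were not tested. The scaffold protein genes of the complex, *Aimp1* and *Eef1e1*, did not pass, at 0.03 ± 0.08 and -0.02 ± 0.13, and *Aimp2* was lower in tdTom+ cells (-0.57 ± 0.09, adjusted p = 3.7e-05).

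Most mitochondrial synthetases are encoded by nuclear genes of their own, while *Gars* and *Kars* each encode the cytosolic and the mitochondrial enzyme. Of 17 genes that encode a mitochondrial enzyme alone, 1 was higher in tdTom+ cells, 5 were lower and 11 did not pass, against 22.7% higher and 27.0% lower over all genes, with a median log2 fold change of -0.17. With the mouse as a replicate block 3 were higher and 6 lower, since *Iars2* (adjusted p = 0.0011) and *Wars2* (0.0077) were then higher and *Fars2* (0.0027) lower. *Rars2* was at 31.1 to 38.2 CPM (median 33.6) in tdTom- and 22.3 to 28.9 CPM (median 23.3) in tdTom+ cells, a log2 fold change of -0.48 ± 0.07 (adjusted p = 3.3e-06), and its fractions did not overlap. *Tars2* (-0.48 ± 0.08) and *Cars2* (-0.39 ± 0.09) were lower as well, and *Mars2* was the higher one (0.33 ± 0.09, adjusted p = 0.0057). *Tars* and *Cars* themselves were among the largest increases of the cytosolic set. For 14 amino acids with 1 cytosolic and 1 mitochondrial gene, the cytosolic log2 fold change was the larger in 12, with a median difference of 0.69. *Nars* against *Nars2* and *Iars* against *Iars2* were the other pairs. *Lars2* ranged from 367 to 2482 CPM in tdTom- libraries and from 450.2 to 1841 CPM in tdTom+ libraries and did not pass (-0.28 ± 0.36, the largest SE of the 17). The next highest of the 17 was *Iars2*, at no more than 91.8 CPM in any library. What set the level of *Lars2* was not tested, and *Lars* against *Lars2* is among the 12 pairs.

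Of the 12 genes of amino acid synthesis and stress, 6 were higher in tdTom+ cells, 1 was lower and 5 did not pass, with a median log2 fold change of 0.67. With the mouse as a replicate block 8 were higher and 1 lower, and the same numbers were found without mouse 7. Over all genes 22.7% were higher and 27.0% lower, and 25.8% and 30.0% with the block.

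Of the 3 enzymes of serine synthesis *Psat1* passed the test. *Phgdh*, the first and committed enzyme, was at 5.03 to 19.1 CPM (median 7.26) in tdTom- and 11.1 to 21.4 CPM (median 13.1) in tdTom+ cells. It was the higher in tdTom+ cells of 8 of 8 mice and its fractions overlapped only through mouse 7, the highest in both. Its log2 fold change of 0.72 ± 0.24 had an adjusted p of 0.015, which became 5.2e-05 with the replicate block and 5.1e-05 without mouse 7. *Phgdh* also passed with relative log expression, TMM without the 10 most counted genes, DESeq2, limma-voom and 10 counts required in every library, with adjusted p between 0.0032 and 0.0097. *Psat1*, the aminotransferase that follows, was at 3.44 to 14.3 CPM (median 5.47) in tdTom- and 15.3 to 30.9 CPM (median 17.4) in tdTom+ cells, without overlap, a log2 fold change of 1.54 ± 0.24 (adjusted p = 2.1e-05). *Psph*, the phosphatase of the last step, was at 3.24 to 5.88 CPM (median 4.22) in tdTom- and 4.15 to 5.63 CPM (median 4.96) in tdTom+ cells, and its log2 fold change of 0.18 ± 0.13 did not pass (adjusted p = 0.24).

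In the mitochondrial use of serine, *Mthfd2* was higher and *Shmt2* depended on the pairing. *Mthfd2*, a folate cycle dehydrogenase, was at 5.88 to 15.0 CPM (median 7.84) in tdTom- and 26.2 to 43.7 CPM (median 29.7) in tdTom+ cells. Its fractions did not overlap, and its log2 fold change was 1.85 ± 0.18 (adjusted p = 4.0e-08). *Shmt2*, which splits serine to glycine, was at 18.7 to 52.6 CPM (median 23.4) in tdTom- and 26.0 to 44.4 CPM (median 33.5) in tdTom+ cells. Its log2 fold change of 0.33 ± 0.19 had an adjusted p of 0.14, which became 0.0058 with the replicate block and 0.0024 without mouse 7, the only mouse in which it was lower in tdTom+ cells. Per kb, *Shmt2* was the highest of the 5 serine genes in both fractions (11.9 ± 4.91 and 14.9 ± 2.59 CPM per kb), and *Mthfd2* rose from 4.12 ± 1.49 to 14.9 ± 2.65 CPM per kb, level with *Shmt2* within the spread.

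*Asns*, asparagine synthetase, had the largest change among the amino acid synthesis genes. It was at 11.9 to 32.8 CPM (median 15.9) in tdTom- and 66.2 to 113 CPM (median 78.6) in tdTom+ cells, and the fractions did not overlap. The ratio of the means was 4.59 and the log2 fold change was 2.20 ± 0.18 (adjusted p = 6.2e-09), with 4.56% of all genes at or above it. *Nars*, whose enzyme puts asparagine on its tRNA, was lower, as was *Qars*, both with the limits given above.

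Among the stress transcription factors, *Atf4* and *Atf5* were higher and *Ddit3* did not pass. *Atf4* was at 137 to 177 CPM (median 162) in tdTom- and 202 to 276 CPM (median 249.7) in tdTom+ cells, without overlap, a log2 fold change of 0.63 ± 0.08 (adjusted p = 1.1e-06). *Atf5*, a related factor that is likewise controlled by translation, was at 4.74 to 10.2 CPM (median 7.01) in tdTom- and 14.6 to 22.0 CPM (median 19.3) in tdTom+ cells, without overlap, a log2 fold change of 1.46 ± 0.13 (adjusted p = 1.8e-08). *Ddit3*, which encodes the pro-apoptotic factor CHOP, was at 15.0 to 30.5 CPM (median 22.0) in tdTom- and 13.8 to 25.7 CPM (median 19.8) in tdTom+ cells, a log2 fold change of -0.19 ± 0.18 (adjusted p = 0.36). It was higher in tdTom+ cells of 2 of 8 mice. The counts measure transcripts, so they hold no value for the protein of *Atf4* or *Atf5*.

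Of the 3 stress targets 1 was higher, 1 was lower and 1 did not pass. *Chac1*, a glutathione-degrading enzyme, had 0 to 14 counts in tdTom- libraries (0 to 0.638 CPM, median 0.229) and 23 to 297 counts in tdTom+ libraries (1.28 to 12.6 CPM, median 2.49). The fractions did not overlap, and within tdTom+ cells mice 5, 7 and 8 were at 12.6, 10.8 and 7.84 CPM while the other 5 were at 1.28 to 2.80 CPM. Its log2 fold change was 4.25 ± 0.60 (adjusted p = 5.4e-06), with 1.65% of all genes at or above it. At such counts the fitted fold depends on the prior count, and the ratio of the mean CPM was 19.6.

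*Trib3*, a pseudokinase that dampens the ATF4 response, went the opposite way to *Chac1*. It was at 5.74 to 14.6 CPM (median 11.8) in tdTom- and 3.11 to 10.4 CPM (median 4.86) in tdTom+ cells, a log2 fold change of -1.12 ± 0.22 (adjusted p = 0.00021), and was the lower in tdTom+ cells of 8 of 8 mice. The fractions overlapped through the tdTom- library of mouse 7 (5.74 CPM) and the tdTom+ library of mouse 5 (10.4 CPM). Mouse 5 also had the highest tdTom+ level of *Chac1*. *Sesn2*, a sestrin that restrains growth signalling, was at 8.69 to 14.5 CPM (median 10.6) in tdTom- and 9.54 to 12.9 CPM (median 10.4) in tdTom+ cells and did not pass (-0.06 ± 0.10, adjusted p = 0.61). Its sign changed under 3 alternatives without passing in any.

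Scores were taken as the mean log2 CPM over the genes of a set in each library, apart for synthetases and for the other genes. The synthetase score was 5.80 ± 0.23 in tdTom- and 6.34 ± 0.12 in tdTom+ cells (SD, n = 8), a difference of 0.54 ± 0.13 within mice, and 0.39 ± 0.13 without *Wars*. The score of the 12 other genes was 3.28 ± 0.25 and 4.24 ± 0.25, a difference of 0.96 ± 0.19. Both differences were above 0 in 8 of 8 mice. Within the 12, the 6 serine, one-carbon and asparagine genes differed by 1.20 ± 0.29 and the 6 stress genes by 0.72 ± 0.30. The stress score rested on *Chac1*, which is near 0 counts in tdTom- libraries. Without it the 5 other stress genes differed by 0.14 ± 0.21, with 6 of 8 mice above 0, and the score of the 11 genes left of the 12 differed by 0.72 ± 0.17, with 8 of 8 above 0.

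The size of these differences varied between mice. Mouse 7 had the highest synthetase score in tdTom- (6.26) and in tdTom+ cells (6.59) and the smallest difference (0.32), and it had the smallest difference in the serine and asparagine score as well (0.70). Its tdTom- library is the one that stood apart in absorptive, stem and proliferation markers, and the part of those cells in the result was not tested. Mouse 5 had the largest difference in all of these scores, 0.70 for the synthetases and 1.35 for the 12 other genes. In the stress gene score mouse 7 lay within the range of the other mice in both fractions, at 3.35 and 4.35.

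**Figure D4:**
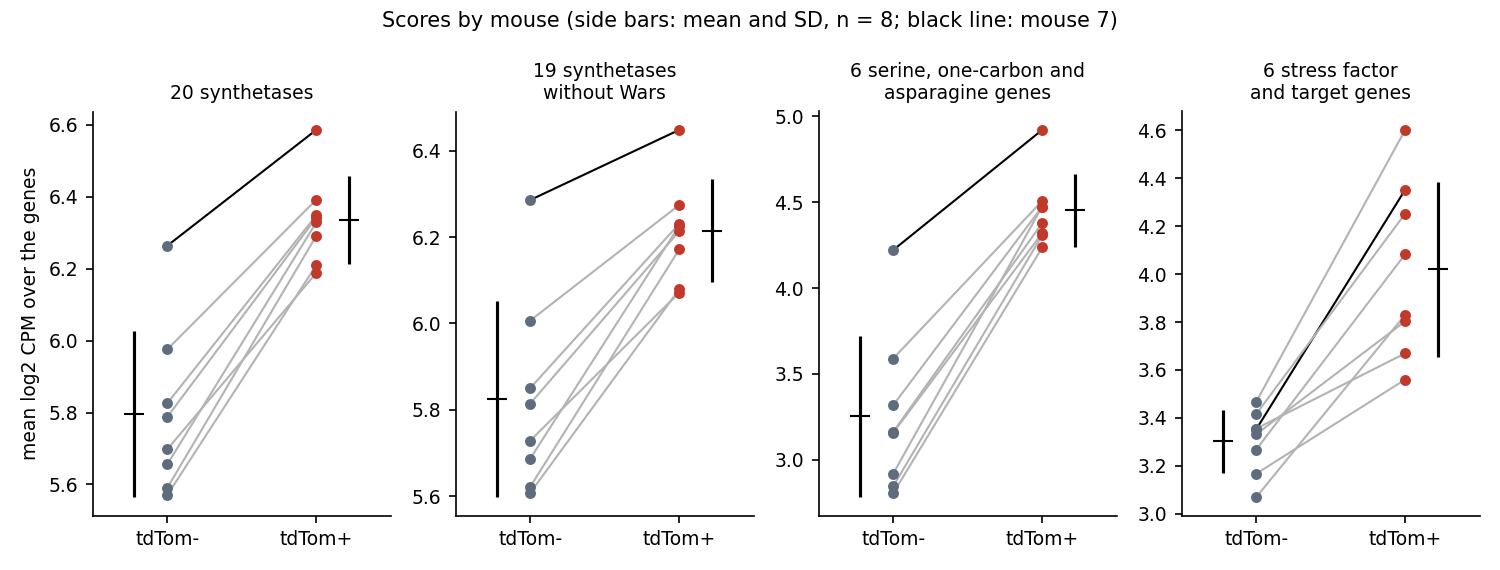
Mean log2 CPM over 20 synthetases, 19 synthetases without *Wars*, 6 serine, one-carbon and asparagine genes, and 6 stress genes (vertical axes do not start at 0) in each library, with lines joining the libraries of a mouse and side bars for the mean and SD (n = 8). Every line rises in all 4 panels (in the stress panel, 6 of 8 would without *Chac1*), and mouse 7 (black) is the highest tdTom- library in the first 3.

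Other genes of these pathways were read from lists drawn up by function. Of 14 genes of the eIF2 kinases and their control, 4 were higher in tdTom+ cells and 1 was lower, near the 22.7% higher over all genes and below the 27.0% lower, with a median log2 fold change of 0.12. With the replicate block 5 were higher and 2 lower, with *Eif2b3* (adjusted p = 0.0015) and *Eif2ak2* (0.0038) added. *Eif2ak4*, which encodes the amino acid sensor GCN2, was at 2.87 to 6.83 CPM (median 5.43) in tdTom- and 16.9 to 26.4 CPM (median 19.6) in tdTom+ cells, a log2 fold change of 1.94 ± 0.15 (adjusted p = 1.7e-09). *Eif2ak3*, which encodes PERK, was at 21.9 to 28.0 CPM (median 27.4) in tdTom- and 56.5 to 103 CPM (median 78.2) in tdTom+ cells, a log2 fold change of 1.54 ± 0.11 (adjusted p = 8.3e-10). In neither did the fractions overlap. *Eif2s2*, the beta subunit of eIF2, was higher (1.14 ± 0.08), while *Eif2ak1*, which encodes the haem-regulated kinase HRI, was lower (-0.62 ± 0.08, adjusted p = 1.8e-06).

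Of 14 other genes of one-carbon metabolism, 6 were higher and 3 lower, against 22.7% and 27.0% of all genes, with a median of 0.11. *Aldh1l2*, the mitochondrial formyl-tetrahydrofolate dehydrogenase, had 0.0502 to 0.387 CPM (median 0.182) in tdTom- cells, from 1 to 8 counts per library. In tdTom+ cells it had 2.62 to 7.86 CPM (median 5.47), a log2 fold change of 4.74 ± 0.28 (adjusted p = 6.5e-11). As for *Chac1*, the fitted fold at such counts depends on the prior count. The cytosolic counterpart of *Aldh1l2*, *Aldh1l1*, had 130 to 184 CPM (median 139.6) in tdTom- and 41.6 to 65.7 CPM (median 54.4) in tdTom+ cells. Its log2 fold change was -1.45 ± 0.09 (adjusted p = 2.1e-10). The fractions overlapped for neither of the pair. Of the glycine cleavage system, *Gldc* was higher (adjusted p = 2.8e-08), with between 1 and 4 counts per tdTom- library against between 11 and 32 per tdTom+ library, *Amt* was higher (1.19 ± 0.16, adjusted p = 2.4e-06, named after its values were seen) and *Gcsh* was lower (-0.44 ± 0.11).

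Of 8 amino acid transporter genes 7 were higher and 1 lower, against 22.7% and 27.0% of all genes, with a median of 1.46. *Slc1a4*, a carrier of serine, alanine and cysteine, had 1.19 to 3.01 CPM (median 1.63) in tdTom- and 23.3 to 46.8 CPM (median 28.0) in tdTom+ cells, a log2 fold change of 4.10 ± 0.19 (adjusted p = 2.2e-12). *Slc6a9*, a glycine carrier (2.84 ± 0.10), and *Slc1a5*, a glutamine carrier (1.80 ± 0.14), were also higher. *Slc3a2*, the heavy chain that several amino acid exchangers share, was lower (-1.29 ± 0.11, adjusted p = 5.6e-09).

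Of 18 other genes known as ATF4 targets 16 could be tested, of which 9 were higher and 4 lower, against 22.7% and 27.0% of all genes, with a median of 1.01. With the replicate block 10 were higher, with *Jdp2* added (adjusted p = 0.0028). *Nupr1*, a stress-induced nuclear protein, had 0.301 to 0.922 CPM (median 0.632) in tdTom- and 56.6 to 151 CPM (median 74.4) in tdTom+ cells, a log2 fold change of 7.11 ± 0.25 (adjusted p = 4.4e-14). *Vldlr*, a lipoprotein receptor (5.12 ± 0.16), and *Gpt2*, the mitochondrial alanine aminotransferase (4.76 ± 0.11), were higher. In tdTom- libraries *Nupr1* had only 6 to 17 counts and *Vldlr* 7 to 20, so the size of their folds carries the limit given for *Chac1*. *Got1*, the cytosolic aspartate aminotransferase (-1.29 ± 0.08), the transcription factor gene *Cebpb* (-1.24 ± 0.19) and *Cth*, which makes cysteine from cystathionine (-1.18 ± 0.11), were lower. *Stc2* and *Fgf21* were not tested, with at most 0.167 CPM in any library. The known targets, with *Trib3* and *Ddit3*, were thus divided between higher, lower and not passed.

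Chaperones and sensors of the endoplasmic reticulum, a neighbouring stress pathway, moved together, with 12 of 12 genes higher, against 22.7% of all genes, and a median of 0.77. *Pdia6*, a disulphide isomerase (1.45 ± 0.12), the transcription factor gene *Xbp1* (1.13 ± 0.07) and *Sdf2l1* (1.08 ± 0.13) changed the most. All 12 were higher in tdTom+ cells of 8 of 8 mice. Their fractions did not overlap in 8 of the 12, against 14.6% of all genes higher without overlap.

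**Figure D5:**
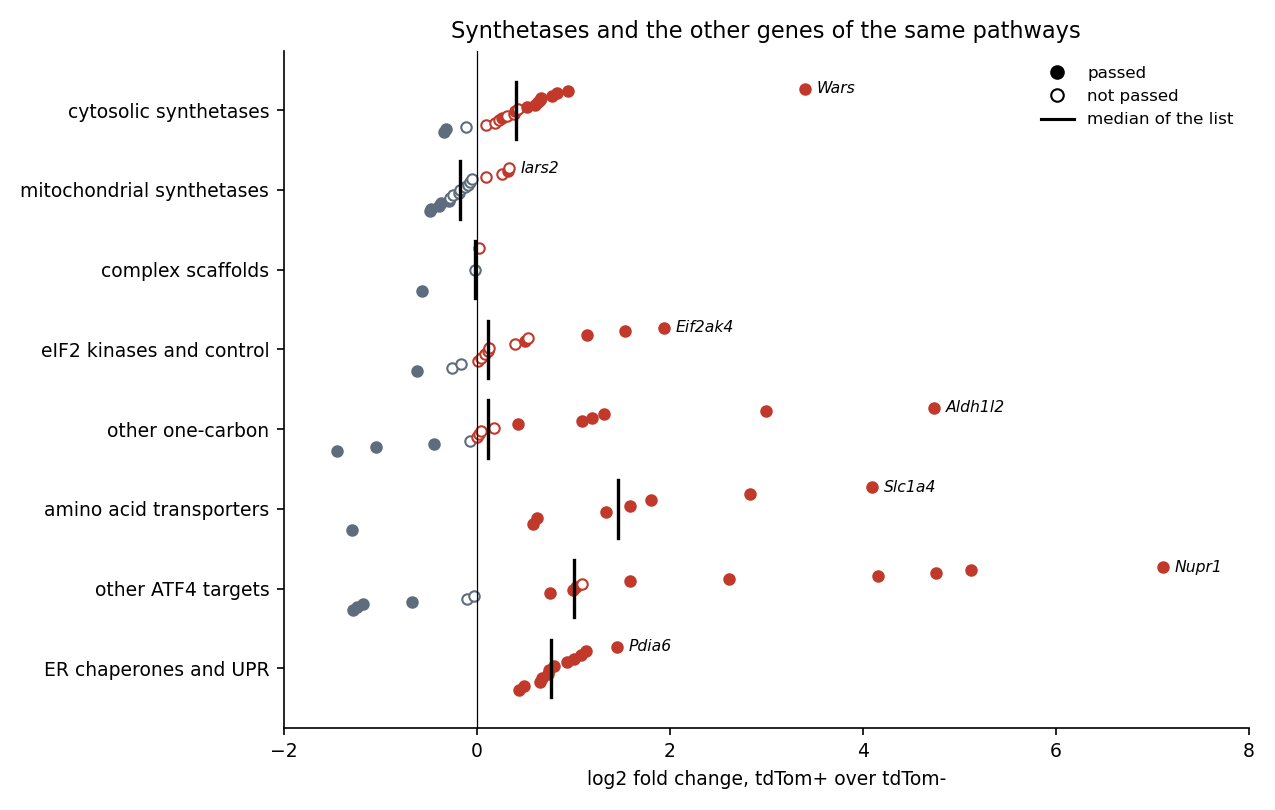
Log2 fold change, tdTom+ over tdTom- (horizontal axis), of each tested gene of 8 lists (vertical axis), filled where the test was passed, with a black bar at the median of each list. The cytosolic synthetases have a median of 0.41 and the mitochondrial ones of -0.17, and the widest spread is among the other ATF4 targets, up to 7.11 for *Nupr1*.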

How the data were processed

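RNA from 8 tdTom+ and 8 tdTom- sorted fractions of 8 mice was sequenced by the authors as 50-base single reads from stranded mRNA libraries. Per the labels reads were aligned with TopHat2 2.1.1 to GRCm38.p3. The values deposited are raw counts for each Ensembl gene, summed over exons on the reverse strand (setting 2) from primary alignments. The file headers name featureCounts 1.5.0-p1, although the submitters' processing notes list Subread 1.5.2. A read overlapping several genes was not counted.

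Counts were analysed in R 4.3.3 with edgeR 4.0.16 (filterByExpr, TMM, quasi-likelihood F-test without a block), with Benjamini-Hochberg adjustment over all 15323 genes tested and a threshold of 0.01. SE is the log2 fold change over the square root of F. CPM values are TMM-normalised, and scores use log2 CPM with a prior count of 2. The pipeline was tested on simulated counts. GENCODE M21 gave symbols for 44585 of the 45513 identifiers and the principal transcript lengths, and *Mars1* is its *Mars*. A replicate number in the title and the series design pair both fractions of a mouse. Deviations from the group means correlated at a mean of 0.43 within mice (0.24 to 0.63), and at -0.06 between mice (-0.46 to 0.47). Centring on the group means draws the between-mice mean below 0, so that mean is no separate evidence of pairing. Each of the 8 tdTom- libraries correlated best with the tdTom+ library of its own number. Blocked values therefore stand beside calls they change among the 32 genes and in the other pathway lists.

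The 32 genes, the other lists and the markers were chosen with earlier results of these data known. All 32 genes are named, and of each other list the called genes with the largest and smallest fold change, up to 3 each way, except that some items are not reported here. Alternatives were other scalings, DESeq2 1.42.0, limma-voom (3.58.1), other filters and thresholds, the replicate block, thinning to the smallest total and leaving out each mouse. With total counts of 17116405 to 25323567 per library, counting error weighs most on genes near 3 counts, such as *Chac1* in tdTom- cells (0 to 14 counts). It also enters the spread of genes with somewhat more counts, such as *Psph* in tdTom- cells (63 to 126 counts).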

Additional observations from a re-analysis of the deposited data

Results flagged for a closer look

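In each fraction the highest and lowest of the 8 log2 CPM values of every gene, and of both scores, were set against the range of the other libraries. Of 68 sets of 8 values 7 held a value whose gap to its neighbour was over the 95% limit of Dixon's ratio of gap to whole range. For independent sets chance gives about 1 in 20, or 3.4 sets. These sets share the same libraries, and the scores average the same genes, so 7 was not tested against that number. All 7 were libraries of mouse 7. Its tdTom+ library was the high one for *Mars1* (gap 0.66 of the range), *Mthfd2* (0.61), *Psat1* (0.60), *Sesn2* (0.587) and *Phgdh* (0.533). Its tdTom- library was the high one for *Cars* (0.574) and the low one for *Trib3* (0.693). The markers of both of its fractions lay at the ends of their groups, with the tdTom+ library highest in Paneth (139283 CPM) and stromal (45.8 CPM) and lowest in goblet (127950 CPM) and absorptive sums (1561 CPM), and their part in these gaps was not tested. Without mouse 7 the log2 fold changes were 1.01 for *Cars* and 1.68 for *Psat1*, and *Phgdh* was at 0.90.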

How the results depend on the processing

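Under the other scalings, tests, filters and depth, the replicate block and an adjusted p of 0.05, 10 to 14 synthetases were higher, and leaving out each mouse gave 10 to 14. The synthetases lower were 2, except 1 (*Qars*) when 10 counts were required in every library, and 0 to 2 on leaving out each mouse. For the 12 other genes leaving out each mouse gave 6 to 8 higher and 1 lower. When the log2 fold change also had to reach 1 in size, 1703 genes were higher and 1731 lower, 1 synthetase was higher and 0 were lower. The synthetase score without *Wars* differed by 0.39 and that of the 12 other genes without *Chac1* by 0.72, both chosen after the data were seen. The synthetase score ran from 0.52 to 0.63 and the other score from 0.90 to 1.04 on leaving out each mouse. With 10 counts required in every library *Rars* was at 0.0088 and *Sesn2* at 0.057, of opposite sign to the reported values, and *Sesn2* ran from -0.13 to 0.038 on leaving out each mouse (0.038 without mouse 3 and 0.0029 without mouse 8). Over all genes 3180 to 3960 were higher and 3224 to 4193 lower on leaving out each mouse. Requiring 10 counts, or leaving out mouse 3, moved the median of all genes to 0.12 and the share of calls that were higher from 45.7% to 55.0% and 55.1%. The cause of these changes was not tested. *Chac1* could not be tested with 10 counts required. With the mouse as a replicate block 14 synthetases were higher and 2 lower, and 8 and 1 of the other genes, and beyond *Eprs*, *Iars*, *Vars*, *Phgdh* and *Shmt2* it changed no call among the 32. With it 3 stem and 6 immune markers were called in place of 2 and 4.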
